A study of Arabidopsis thaliana with 10 samples.

Results

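The WRKY transcription factors of Arabidopsis thaliana were followed in whole seedlings after gamma irradiation. The set held 37 WRKY genes listed by locus code, a list that names no measured value as its rule. It was chosen with earlier results of these data known, and 35 further WRKY genes are given at the end for comparison. Of the 37, 35 matched a probe through its transcript accession. WRKY4 and WRKY61 matched no probe and were not analysed here. All 35 passed the filter on dim probes, which kept a probe when 5 or more of the 10 arrays measured it well above background. They are read from a fit over 23665 genes, of which 20036 had a locus. The others were probe targets that matched no locus, and shares of all genes below count both kinds. The gamma group was made of seedlings of the Columbia-0 ecotype aged 14 days that received 200 Gy at 50 Gy per h, over 4 h. The mock group was made of seedlings of the same ecotype and age handled without radiation. Both were sampled at 24 h, and RNA of whole seedlings was labelled with Cy3 and hybridised to 1-colour Agilent arrays. Independent plants were treated in 5 runs, each on its own day per the design text and each giving 1 gamma and 1 mock array. Runs 3, 4 and 5 fell in a later year than runs 1 and 2, per the titles.

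WRKY proteins are plant transcription factors with a conserved DNA-binding domain that recognises a promoter element called the W-box, which is common in defence genes. They are sorted by the number and type of their domains into group I, the subgroups IIa to IIe and group III. Many of their own promoters hold W-boxes, and several members are rapidly induced by pathogen signals, salicylate, wounding, heat or oxidative stress, while others act in leaf senescence and phosphate nutrition.

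Every level below is the log2 of an array's processed signal minus the 75th percentile of that array, so that 0 stands for a signal at that percentile. Levels of different genes come from different probes and are not set against each other. Each SE is that of the limma fit, moderated by a variance shared over all genes, and not the plain SE over the pairs. An array measured 71.7% to 76.6% of its 43603 probes well above background, and precision is limited by the number of arrays. All 6 genes of a radiation check list rose after gamma in all runs, with log2 differences of 2.58 to 5.73, among them SMR7, a cell cycle inhibitor, at 5.73 ± 0.13 (SE) and PARP2, a sensor of DNA breaks, at 3.95 ± 0.12. That list was chosen with earlier results of these data known, so it is not an independent check. All 9 leaf markers and all 9 root markers passed the filter. Of the leaf markers 3 had estimates above 0 and 6 below (median -0.014), and of the root markers 2 above and 7 below (median -0.079).

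The first comparison asked which WRKY transcripts responded to gamma rays. WRKY50, WRKY60 and WRKY48 rose, 0 WRKY genes fell, and 32 did not pass the test, which was limma with the run as a block and Benjamini-Hochberg adjustment over all genes tested at 0.05. The share called was 8.57% of the 35, beside 4.11% of all genes tested. Called genes that rose made up 1.70% of all genes and called genes that fell 2.41%. At an unadjusted p under 0.05, 6 WRKY genes were higher and 1 was lower after gamma, together 20.0% of the set, against 22.0% of all genes (9.14% higher and 12.9% lower), which is close to the background. The estimate was above 0 for 23 WRKY genes and below 0 for 12, and 46.0% of all genes had an estimate above 0. The median log2 difference was 0.063 over the 35 WRKY genes and -0.016 over all genes. WRKY genes had larger differences of either sign and larger errors than genes in general, with a median absolute log2 difference of 0.219 against 0.112 over all genes and a median SE of 0.127 against 0.081. In every run the gamma and mock arrays lay on the same slide, with mock at the first position and gamma at the second, so slide position and treatment cannot be told apart.

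**Figure D1:**
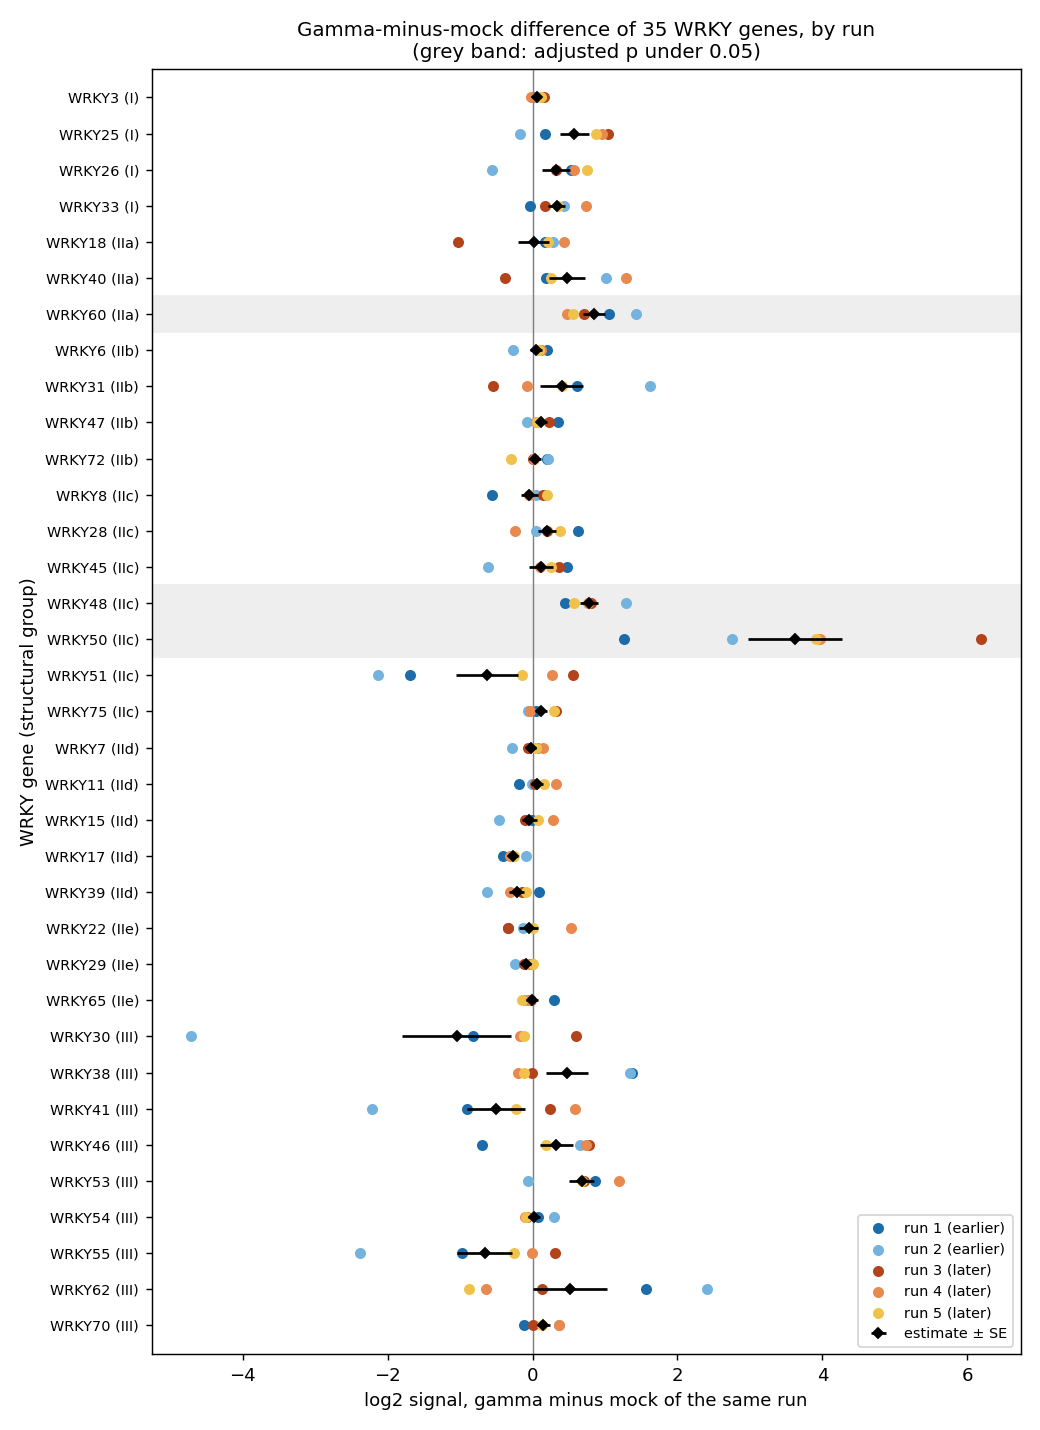
Difference between the gamma and the mock array of each run on the log2 scale (horizontal axis) for the 35 WRKY genes measured, listed from group I to group III. Coloured points are the 5 runs and black diamonds the fitted estimate with its moderated SE (n = 5 pairs). Grey bands mark WRKY60, WRKY48 and WRKY50, for which all 5 points lie above 0. The widest spread between runs is that of WRKY30, whose run 2 lies at -4.71.

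WRKY50, of group IIc, is known for repressing jasmonate signalling together with WRKY51 when salicylate and low oleic acid signals are active. WRKY50 (AT5G26170) was at -0.78, -0.32, -1.01, -1.16 and -1.44 on the gamma arrays of runs 1 to 5, against -2.05, -3.08, -7.20, -5.12 and -5.36 on the mock arrays. Every gamma array lay above every mock array. The groups did not overlap, in either direction, for 1 WRKY gene (WRKY50) and for 2.06% of all genes. The gamma arrays spanned 1.12 and the mock arrays 5.16, so the runs differed mainly on their mock arrays. WRKY50 rose 12.3-fold, a log2 difference of 3.62 ± 0.65 (moderated SE, 5 pairs, limma adjusted p = 0.0391). A second WRKY50 probe gave 3.58 (adjusted p = 0.0455 in a fit over probes). The mock array of run 3, the lowest, was not well above background; with normexp background correction the difference was 2.49, and without that run it was 2.97 and the adjusted p 0.0696. In RNA of whole seedlings, a change in the share of cells that express a gene and a change in RNA per cell cannot be told apart.

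WRKY60, of group IIa, forms complexes with WRKY18 and WRKY40 and takes part in abscisic acid responses and basal resistance. WRKY60 (AT2G25000) was at 0.45, 0.42, 0.073, 0.24 and -0.52 on the gamma arrays of runs 1 to 5, against -0.62, -1.01, -0.64, -0.23 and -1.08 on the mock arrays. Gamma exceeded mock in 5 of 5 runs, by 0.47 to 1.43 (as for the other two genes that rose, and for 10.1% of all genes), but both arrays of run 5 were low and the groups overlapped. It rose 1.8-fold (log2 0.85 ± 0.15 SE, limma adjusted p = 0.0375).

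WRKY48, of group IIc, is a negative regulator of basal resistance to bacteria. WRKY48 (AT5G49520) stood at -3.09, -1.64, -3.25, -3.29 and 0.40 on the gamma arrays of runs 1 to 5, against -3.54, -2.93, -4.05, -4.06 and -0.17 on the mock arrays. Both arrays of run 5 were far above the other runs, and within each run the gamma array was the higher by 0.45 to 1.29. It rose 1.71-fold (log2 0.78 ± 0.12 SE, limma adjusted p = 0.0296).

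Each of these 3 calls was lost when 1 of several runs was left out. WRKY50 stayed past the threshold without run 1 (log2 4.21, adjusted p = 0.0457) and missed it without any other run, at adjusted p of 0.0615 to 0.128. WRKY60 and WRKY48 stayed past it without run 2 and missed it without any other run, at 0.0812 to 0.114 for WRKY60 and 0.0605 to 0.107 for WRKY48. Their log2 differences with 1 run left out were 0.70 to 0.94 for WRKY60 and 0.65 to 0.86 for WRKY48. By period, the log2 difference of WRKY50 was 4.69 in the later runs and 2.01 in the earlier runs. The later value includes run 3, at 6.19, whose mock array was not well above background, beside 3.96 and 3.92 in runs 4 and 5. For WRKY60 it was 0.58 in the later and 1.25 in the earlier runs, and for WRKY48 0.72 in the later and 0.87 in the earlier runs. Without the run as a block no WRKY gene was called: the adjusted p was 0.134 for WRKY50, 0.243 for WRKY60 and 1 for WRKY48.

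**Figure D2:**
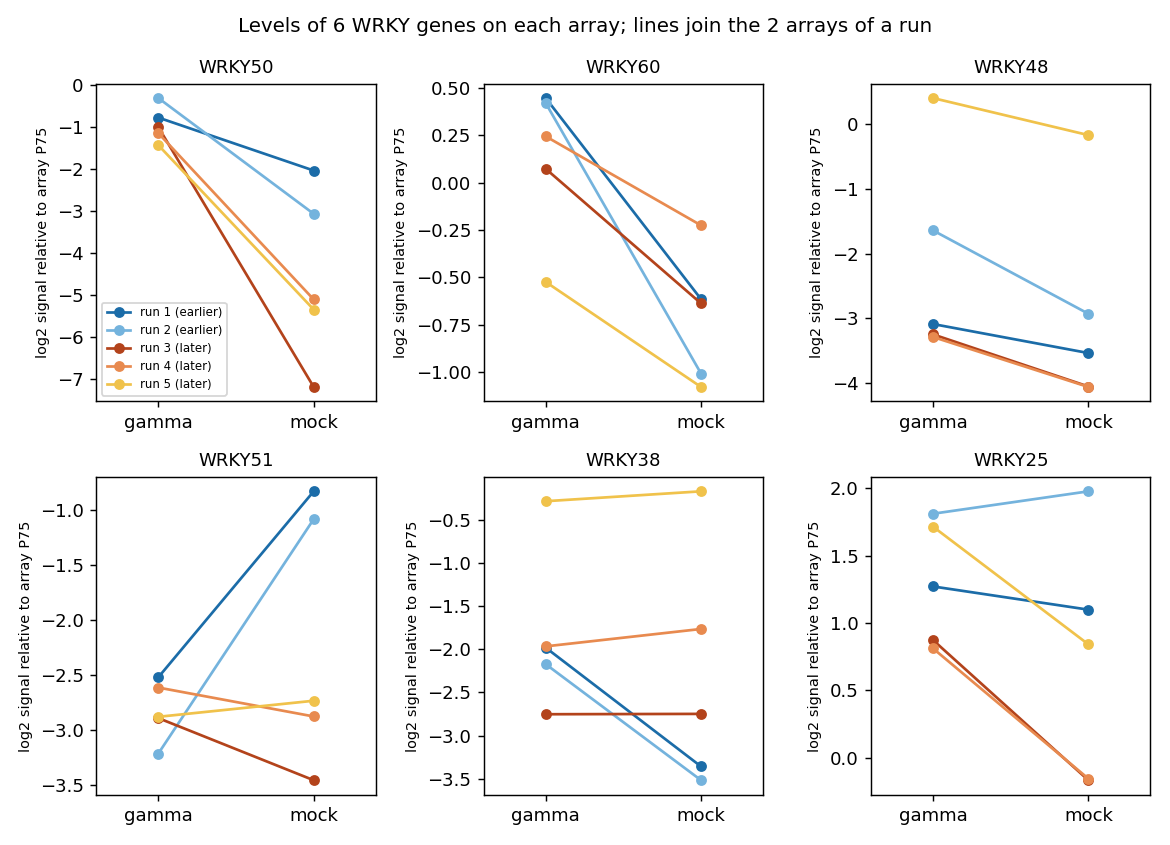
Log2 signal relative to the array's 75th percentile (vertical axis) on the gamma and mock arrays of each run for 6 WRKY genes; lines join the 2 arrays of a run and colours mark the runs. The upper row holds the 3 genes that rose, in which every line falls towards mock. The lower row holds WRKY51, WRKY38 and WRKY25, in which the lines of the earlier runs (blue) run differently from those of the later runs (orange).

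In group I, whose members carry a pair of WRKY domains, all 4 genes measured had estimates above 0 and none passed the test (limma adjusted p 0.163 to 0.56). WRKY33, a substrate of the kinases MPK3 and MPK6 that activates camalexin synthesis and resistance to Botrytis, gave 0.33 ± 0.11. WRKY33 (AT2G38470) stood at 2.19, 2.12, 0.46, 1.13 and 2.85 on the gamma arrays of runs 1 to 5, against 2.22, 1.68, 0.28, 0.40 and 2.50 on the mock arrays. Gamma was the higher in 4 of 5 runs, and runs 3 and 4 were the lowest in both groups. WRKY25, which acts with WRKY26 and WRKY33 in heat tolerance, gave 0.58 ± 0.20. WRKY25 (AT2G30250) was at 1.27, 1.81, 0.87, 0.81 and 1.71 on the gamma arrays of runs 1 to 5, against 1.1, 1.98, -0.17, -0.15 and 0.84 on the mock arrays. In the later runs the gamma array was higher by 0.87 to 1.04, whereas in the earlier runs the differences were 0.17 and -0.17. Fitted on the later runs alone, WRKY25 was past the threshold (log2 0.96, limma adjusted p = 0.0161). Over all runs it was not (limma adjusted p = 0.167). The limma test of the difference between the later and earlier runs did not pass either (adjusted p = 0.147). WRKY26 (AT5G07100) read -0.013, 0.45, -0.21, -0.17 and 1.14 on the gamma arrays of runs 1 to 5, against -0.55, 1.01, -0.53, -0.74 and 0.39 on the mock arrays. Its estimate was 0.33 ± 0.19, with run 2 the only run in which mock was higher. With 1 run left out the estimate was 0.22 to 0.55 (adjusted p up to 0.625), past the threshold only without run 2, the run of opposite sign (adjusted p = 0.0347). WRKY3 (AT2G03340) read -0.40, -0.86, -0.58, -0.50 and -0.81 on the gamma arrays of runs 1 to 5, against -0.41, -0.90, -0.74, -0.48 and -0.92 on the mock arrays. WRKY3, which acts in resistance to necrotrophic fungi, differed by at most 0.16 within a run, with an estimate of 0.058 ± 0.053.

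The other two group IIa genes, WRKY18 and WRKY40, are quickly induced partners of WRKY60 in basal defence and abscisic acid signalling. WRKY18 (AT4G31800) was at 1.92, 2.92, 0.92, 0.75 and 5.58 on the gamma arrays of runs 1 to 5, against 1.75, 2.63, 1.94, 0.31 and 5.37 on the mock arrays. WRKY40 (AT1G80840) was at 2.45, 2.66, -0.25, 1.18 and 4.33 on the gamma arrays of runs 1 to 5, against 2.25, 1.64, 0.12, -0.11 and 4.08 on the mock arrays. Both were far above their other runs on the gamma and mock arrays of run 5, and the groups overlapped over nearly their whole range. The estimate was 0.016 ± 0.22 for WRKY18 and 0.47 ± 0.24 for WRKY40 (limma adjusted p 0.973 and 0.313). Gamma was the higher in 4 of 5 runs for both, and run 3 went the other way for both.

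In group IIb, all 4 genes measured had estimates above 0, from 0.031 to 0.40, and none passed the test (limma adjusted p 0.394 to 0.864). WRKY6 acts in leaf senescence and represses the phosphate exporter gene PHO1. WRKY6 (AT1G62300) read -1.05, -1.37, -0.26, -0.55 and -0.63 on the gamma arrays of runs 1 to 5, against -1.25, -1.11, -0.37, -0.66 and -0.73 on the mock arrays. The estimate was 0.051 ± 0.08, and the later runs were higher than the earlier runs in both groups. WRKY31 (AT4G22070) was at -5.77, -3.97, -3.74, -3.67 and -3.19 on the gamma arrays of runs 1 to 5, against -6.38, -5.59, -3.18, -3.59 and -3.60 on the mock arrays. The gamma and mock arrays of run 1 were the lowest, the mock array among them not well above background, and the estimate was 0.40 ± 0.30. WRKY47 (AT4G01720) read -1.57, -1.44, -1.51, -1.60 and -2.03 on the gamma arrays of runs 1 to 5, against -1.93, -1.36, -1.74, -1.65 and -2.10 on the mock arrays. WRKY47 differed by 0.12 ± 0.076, less than its spread between runs; its second probe gave -0.077. WRKY72 (AT5G15130) stood at -3.85, -3.51, -3.17, -3.42 and -3.10 on the gamma arrays of runs 1 to 5, against -4.05, -3.73, -3.18, -3.45 and -2.81 on the mock arrays. For WRKY72, which takes part in basal immunity, the estimate was 0.031 ± 0.086, and its second probe gave -0.26.

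Group IIc holds WRKY50, WRKY48 and 5 further genes, none of which passed the test. WRKY51, the partner of WRKY50 in the repression of jasmonate signalling, had the opposite sign to WRKY50 in the earlier runs. WRKY51 (AT5G64810) was at -2.52, -3.22, -2.90, -2.62 and -2.88 on the gamma arrays of runs 1 to 5, against -0.83, -1.09, -3.46, -2.88 and -2.74 on the mock arrays. The mock arrays of runs 1 and 2 lay far above the other 8 arrays, and the estimate was -0.63 ± 0.43 (limma adjusted p = 0.44). WRKY75 (AT5G13080) read -1.54, -1.60, -1.66, -1.45 and -0.60 on the gamma arrays of runs 1 to 5, against -1.60, -1.54, -1.98, -1.42 and -0.91 on the mock arrays. WRKY75, which acts in phosphate starvation and root hair development, differed by 0.12 ± 0.08, with both arrays of run 5 the highest of their group. WRKY28 (AT4G18170) read -3.53, -2.99, -3.61, -3.59 and -2.16 on the gamma arrays of runs 1 to 5, against -4.16, -3.04, -3.81, -3.35 and -2.54 on the mock arrays. WRKY28, reported to bind the promoter of the salicylate synthesis gene ICS1, differed by 0.20 ± 0.13 and was also highest in run 5. WRKY45 (AT3G01970), which activates the phosphate transporter gene PHT1;1, ranged from -0.91 to -0.0085 on gamma arrays and from -0.91 to -0.13 on mock arrays, with an estimate of 0.12 ± 0.16. WRKY8 (AT5G46350), which acts in salt tolerance and defence, ranged from -3.78 to -3.22 on gamma arrays and from -3.63 to -3.17 on mock arrays, with an estimate of -0.043 ± 0.12.

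The group IId proteins bind calmodulin, and 4 of the 5 genes had estimates below 0, none past the test (limma adjusted p 0.0736 to 0.9). WRKY17, like WRKY7 and WRKY11 a negative regulator of basal defence, was lower after gamma in 5 of 5 runs, as were WRKY29 and 13.6% of all genes. WRKY17 (AT2G24570) read -1.93, -1.32, -1.63, -1.77 and -1.60 on the gamma arrays of runs 1 to 5, against -1.52, -1.23, -1.37, -1.46 and -1.34 on the mock arrays. The difference was small and steady at -0.26 ± 0.062 (adjusted p = 0.0736). With 1 run left out it was -0.31 to -0.23 (adjusted p up to 0.228), past the threshold only without run 2, the run of smallest difference (adjusted p = 0.0408). WRKY39 (AT3G04670) read 0.11, 0.13, 0.38, -0.16 and -0.00034 on the gamma arrays of runs 1 to 5, against 0.023, 0.76, 0.53, 0.15 and 0.093 on the mock arrays. WRKY39, which acts in heat tolerance, was lower after gamma in 4 of 5 runs, with an estimate of -0.22 ± 0.11. WRKY15 (AT2G23320) read 1.84, 1.98, 0.94, 1.05 and 2.30 on the gamma arrays of runs 1 to 5, against 1.84, 2.45, 1.05, 0.76 and 2.23 on the mock arrays. For WRKY15, a regulator of mitochondrial stress signalling and osmotic stress tolerance, runs 3 and 4 were the lowest in both groups and the estimate was -0.042 ± 0.11. WRKY11 (AT4G31550) read 1.86, 1.52, 1.15, 1.23 and 1.86 on the gamma arrays of runs 1 to 5, against 2.06, 1.52, 1.11, 0.91 and 1.71 on the mock arrays. WRKY7 (AT4G24240) read 0.34, -0.21, -0.44, -0.098 and -0.29 on the gamma arrays of runs 1 to 5, against 0.28, 0.073, -0.37, -0.24 and -0.33 on the mock arrays. The estimates of WRKY11 and WRKY7 were 0.063 ± 0.083 and -0.02 ± 0.075, and run 1 was at or near the top of both groups for each of these genes.

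In group IIe all 3 estimates were within 0.1 of 0 on the negative side and none passed the test (limma adjusted p 0.445 to 0.962). WRKY22 and WRKY29 lie downstream of the MAP kinase cascade that answers bacterial flagellin. WRKY22 (AT4G01250) was at 0.12, 0.11, -2.23, -1.99 and 1.16 on the gamma arrays of runs 1 to 5, against 0.46, 0.25, -1.89, -2.52 and 1.16 on the mock arrays. Runs 3 and 4 lay far below the other 3 runs in both groups, and the gamma-minus-mock estimate was -0.055 ± 0.14. WRKY29 (AT4G23550) read -2.21, -1.95, -1.99, -1.83 and -0.51 on the gamma arrays of runs 1 to 5, against -2.20, -1.71, -1.87, -1.78 and -0.50 on the mock arrays. Its 2 arrays of a run lay close together, with an estimate of -0.083 ± 0.058, while both arrays of run 5 stood far above the rest. WRKY65 (AT1G29280) read 0.28, 0.42, 0.81, 0.45 and 0.32 on the gamma arrays of runs 1 to 5, against -0.021, 0.53, 0.83, 0.51 and 0.46 on the mock arrays. WRKY65 differed by -0.0081 ± 0.078, with gamma the higher in run 1 alone.

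Group III held 9 genes, 6 with estimates above 0 and 3 below, and none passed the test (limma adjusted p 0.0895 to 0.902). WRKY53, a promoter of leaf senescence, came closest. WRKY53 (AT4G23810) was at -0.67, -0.64, -2.71, -1.88 and -1.16 on the gamma arrays of runs 1 to 5, against -1.53, -0.57, -3.43, -3.08 and -1.84 on the mock arrays. Gamma was the higher in 4 of 5 runs, with an estimate of 0.68 ± 0.17 (adjusted p = 0.0895). With 1 run left out it was 0.55 to 0.86 (adjusted p up to 0.234), past the threshold only without run 2, the run of opposite sign (adjusted p = 0.0237). A second WRKY53 probe gave 0.47 over all runs (limma adjusted p = 0.114 in a fit over probes). WRKY54 and WRKY70, which restrain senescence and salicylate accumulation, differed by 0.02 ± 0.077 and 0.15 ± 0.09. WRKY70 (AT3G56400) read 4.39, 3.33, 3.07, 3.92 and 3.05 on the gamma arrays of runs 1 to 5, against 4.51, 2.96, 3.06, 3.56 and 2.92 on the mock arrays. WRKY54 (AT2G40750) read 0.17, -1.12, -1.27, -0.18 and -1.50 on the gamma arrays of runs 1 to 5, against 0.086, -1.42, -1.19, -0.077 and -1.40 on the mock arrays. For both, run 1 was the highest of each group, and the 2 arrays of a run lay close together. WRKY46 (AT2G46400) read 0.27, 1.18, -1.87, -1.13 and 0.99 on the gamma arrays of runs 1 to 5, against 0.97, 0.53, -2.65, -1.86 and 0.80 on the mock arrays. WRKY46, which acts in stomatal and drought responses, differed by 0.33 ± 0.23, with run 1 the only run in which mock was higher.

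WRKY38 and WRKY62 are related negative regulators of basal defence. WRKY38 (AT5G22570) was at -1.98, -2.17, -2.75, -1.97 and -0.29 on the gamma arrays of runs 1 to 5, against -3.36, -3.52, -2.75, -1.77 and -0.17 on the mock arrays. Gamma was higher in both earlier runs, by 1.34 and 1.37, and not in the later runs, so the estimate over all runs was 0.48 ± 0.29. WRKY62 (AT5G01900) ranged from -5.42 to -4.29 on gamma arrays and from -7.15 to -4.42 on mock arrays, and its mock arrays of runs 1 and 2 were not well above background. Its estimate was 0.52 ± 0.51.

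WRKY30, which acts in oxidative stress tolerance, WRKY41, a regulator of seed dormancy, and WRKY55, which acts in salicylate accumulation and senescence, had estimates below 0. WRKY30 (AT5G24110) was at -4.42, -4.20, -6.35, -5.98 and -3.67 on the gamma arrays of runs 1 to 5, against -3.59, 0.51, -6.95, -5.81 and -3.55 on the mock arrays. The mock array of run 2 stood far above the other 9 arrays, and without that run the estimate of -1.05 ± 0.75 became -0.13. A second WRKY30 probe gave -0.38 ± 0.86 over all runs. WRKY55 (AT2G40740) was at -3.51, -4.0, -6.65, -5.38 and -5.73 on the gamma arrays of runs 1 to 5, against -2.54, -1.62, -6.96, -5.36 and -5.47 on the mock arrays. Its mock arrays of runs 1 and 2 were the 2 highest, and the estimate was -0.66 ± 0.38. WRKY41 (AT4G11070) ranged from -5.61 to -4.47 on gamma arrays and from -5.96 to -2.26 on mock arrays, with the mock array of run 2 the highest and an estimate of -0.50 ± 0.40. For WRKY30 and WRKY55 both arrays of run 3 were not well above background, and for WRKY41 the mock array of run 3. WRKY54 is the protein-coding gene next to WRKY55 on the chromosome, and on its mock arrays run 1 was the highest and run 2 the lowest.

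**Figure D3:**
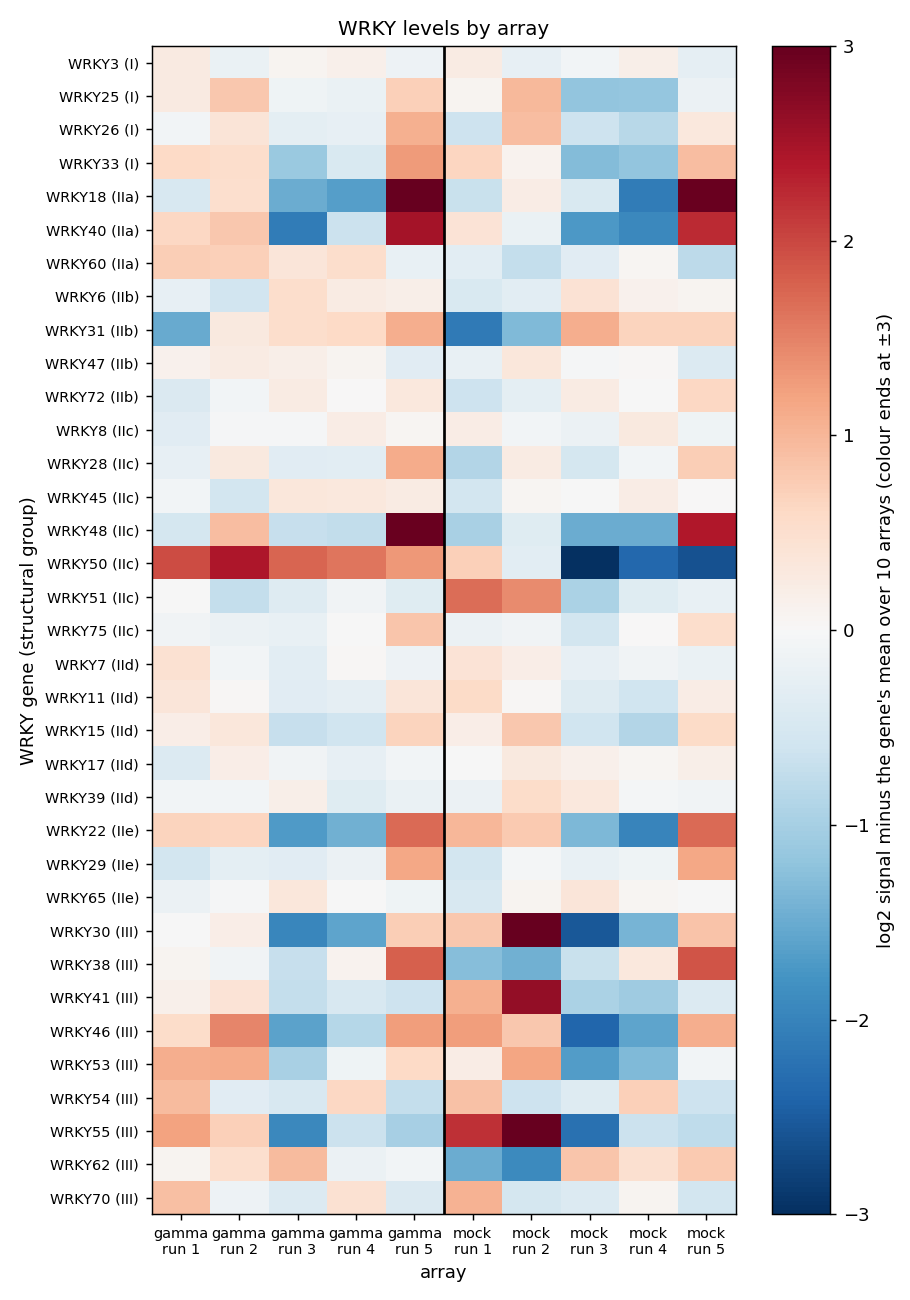
Level of each of the 35 WRKY genes on each array, as log2 signal minus that gene's mean over the 10 arrays (colour, ends at -3 and 3), with gamma arrays on the left and mock arrays on the right of the line. In most rows the same runs are red or blue on both sides, for example run 5 for WRKY18, WRKY40, WRKY48 and WRKY29; WRKY50 is the row that is red throughout on the gamma side.

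A further test asked whether WRKY levels differed between the 5 runs, whatever the treatment. Of the 35 WRKY genes, 26 differed between runs (74.3%, limma F test of the run terms, Benjamini-Hochberg adjusted over all genes), beside 56.3% of all genes. The lowest adjusted p was that of WRKY48, at 0.000566, followed by WRKY29 at 0.000757 and WRKY22 at 0.000762. The 9 genes that did not pass were WRKY60, WRKY8, WRKY45, WRKY50, WRKY51, WRKY39, WRKY30, WRKY41 and WRKY62. Without run 5, 16 passed. A run is at once a day of plant handling, a slide and a scan, and these cannot be told apart.

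The 5 mock arrays of a WRKY gene spanned a median of 1.69 on the log2 scale, against 0.723 over all genes, and the 5 gamma arrays 1.14, against 0.636. The mock span exceeded 2 for 16 WRKY genes (45.7%), beside 7.83% of all genes. It was widest for WRKY30 at 7.46, WRKY55 at 5.34, WRKY50 at 5.16 and WRKY18 at 5.06, and narrowest for WRKY17 at 0.29. For WRKY30, WRKY55 and WRKY50 the low end was the mock array of run 3, which was not well above background. For WRKY31 (span 3.195) it was that of run 1 and for WRKY62 (span 2.73) that of run 2, also not well above background. These spans, all counted among the 16, and their order are therefore not exact. The mock span was wider than the fitted gamma difference for all 35 WRKY genes, the 3 that rose included, as it was for 97.9% of all genes. By structural group the median mock span was 4.19 in IIa and 3.34 in III, and 0.733 in IId.

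**Figure D4:**
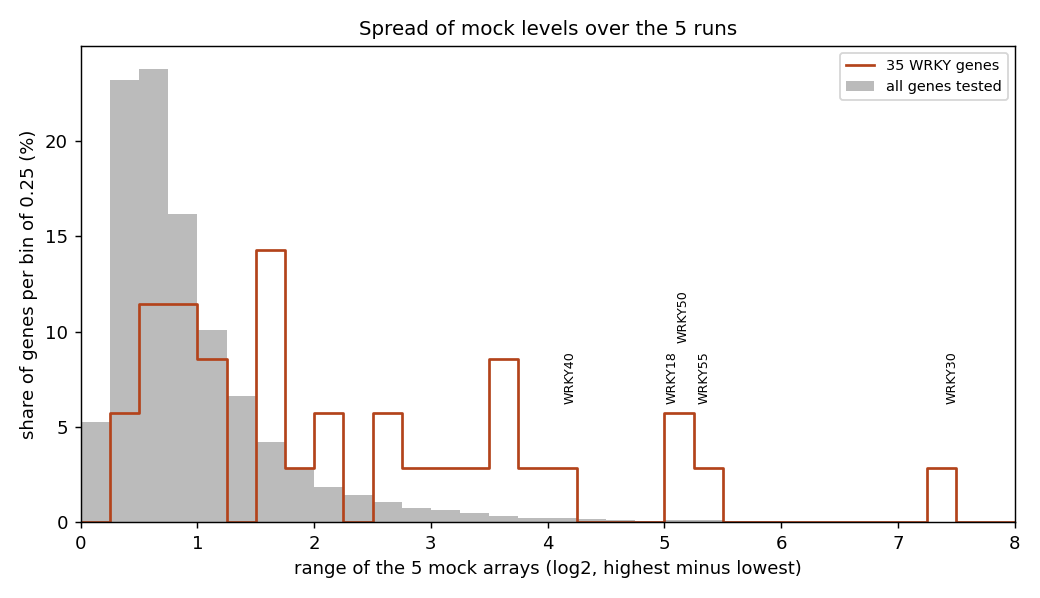
Span of the 5 mock arrays (horizontal axis, highest minus lowest log2 level) for the 35 WRKY genes (line) and for all 23665 genes tested (grey bars), each as a percentage of its genes per bin of 0.25 (vertical axis). The line has its weight to the right of the bars, and the 5 widest spans are named, 3 of which (WRKY30, WRKY55 and WRKY50) reach an array not well above background.

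The runs did not rank alike for all WRKY genes. The mock array was the highest of the 5 in run 1 for 8 WRKY genes, in run 2 for 10, in run 3 for 4, in run 4 for 3 and in run 5 for 10. Over all genes the shares were 21.3%, 23.7%, 21.4%, 17.6% and 15.9% for runs 1 to 5. The mock array was the lowest in run 1 for 9 WRKY genes, in run 2 for 3, in run 3 for 11, in run 4 for 8 and in run 5 for 4, beside 17.0%, 25.2%, 14.1%, 13.2% and 30.4% of all genes. The gamma and the mock array were both below those of the other runs in runs 3 and 4 for 10 WRKY genes (28.6%), beside 7.50% of all genes, a pattern chosen after the values were seen. These were WRKY25, WRKY33, WRKY40, WRKY48, WRKY11, WRKY15, WRKY22, WRKY30, WRKY46 and WRKY53. A list of 16 genes known to answer touch and wounding early held 11 genes with the same order of runs. The median level of that list was 2.35, 2.33, 0.68, 1.19 and 2.93 on the gamma arrays of runs 1 to 5, against 2.55, 1.92, 0.815, 0.70 and 2.77 on the mock arrays. Its part in the WRKY levels was not tested.

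The last test asked whether the gamma difference itself differed between the later and the earlier runs. No WRKY gene passed it (limma interaction, Benjamini-Hochberg adjusted), beside 0.00423% of all genes, which is 1 gene. At an unadjusted p under 0.05 there were 10 WRKY genes (28.6%), beside 10.5% of all genes, and for 21 of the 35 (60.0%) the mean difference had opposite signs in the 2 periods, beside 38.1% of all genes. WRKY38 lay at the threshold. Its gamma-minus-mock difference averaged -0.11 in the later runs and 1.36 in the earlier runs, a difference of -1.46 ± 0.11 (SE, adjusted p = 0.0526). With array median scaling the adjusted p was 0.0469, with normexp background correction 0.0244, with the authors' deposited ratios 0.0473 and with probes well above background on all arrays 0.0480, all past the threshold, while quantile normalisation gave 0.0668, the mean of all probes 0.0569 and no filter 0.162. The deposited ratios gave nearly the same values as array median scaling, so those results are not independent of each other. The mock arrays of WRKY38 in the earlier runs were the lowest of its 10 arrays.

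WRKY62 shared that direction, with -0.46 in the later runs and 1.99 in the earlier runs (difference -2.45 ± 0.39 SE, adjusted p = 0.164). Both earlier mock arrays of WRKY62 were not well above background, so these sizes are not exact, and normexp background correction gave a difference between the periods of -0.82. WRKY51 ran the opposite way, with 0.23 in the later runs and -1.91 in the earlier runs (difference 2.14 ± 0.25 SE, adjusted p = 0.108). WRKY41, WRKY55 and WRKY30 were likewise lower after gamma in the earlier runs, and nearer 0 in the later runs. The mean difference was 0.20 in the later and -1.56 in the earlier runs for WRKY41, 0.013 in the later and -1.68 in the earlier runs for WRKY55, and 0.099 in the later and -2.77 in the earlier runs for WRKY30. That earlier mean of WRKY30 combines -0.83 in run 1 and -4.71 in run 2. In run 3 both arrays of WRKY30 and WRKY55, and the mock array of WRKY41, were not well above background. Their later means are therefore not exact. WRKY25 was at 0.96 in the later runs and near 0, at 0.0027, in the earlier runs (difference 0.96 ± 0.14 SE, adjusted p = 0.147). WRKY31, WRKY50 and WRKY60 complete the 10 genes, and WRKY50 and WRKY60 kept their sign in both periods. The mock arrays of WRKY50 in run 3 and of WRKY31 in run 1 were not well above background, so their sizes are not exact.

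**Figure D5:**
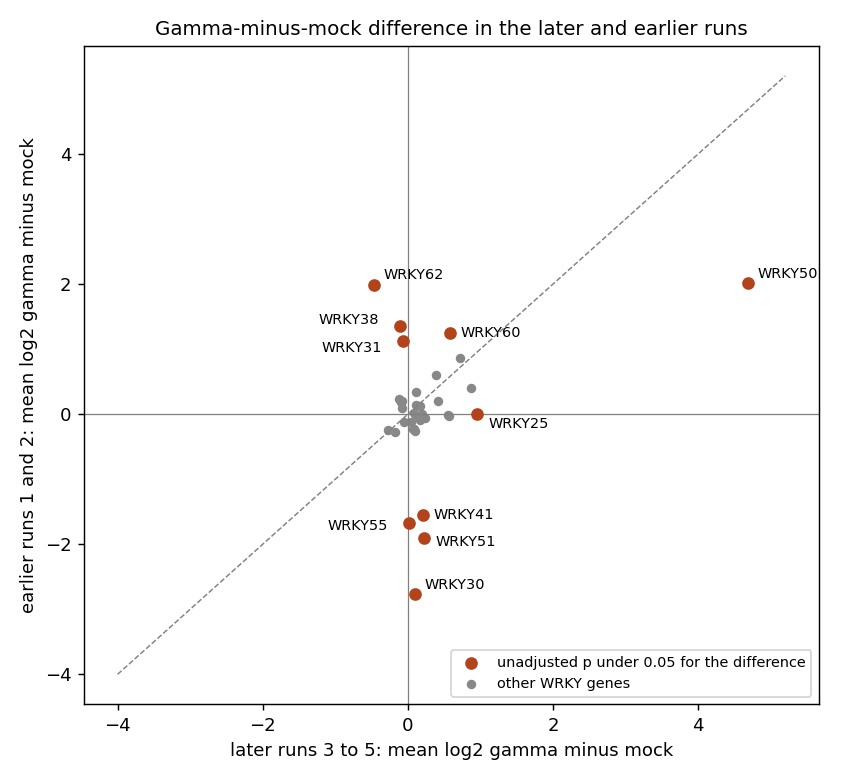
Mean gamma-minus-mock log2 difference of each WRKY gene in the later runs 3 to 5 (horizontal axis) and the earlier runs 1 and 2 (vertical axis); the dashed line marks equal differences. The 10 named genes had an unadjusted p under 0.05 for the difference between the periods, and 0 passed after adjustment. WRKY62, WRKY38 and WRKY31 lie above the line near 0 on the horizontal axis, and WRKY41, WRKY55, WRKY51 and WRKY30 below it.

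Genes around the WRKY factors were read from the same fit. Of 35 further WRKY genes, 28 passed the filter and 0 were called by limma (4 higher and 3 lower at an unadjusted p under 0.05), with a median log2 difference of 0.0018. WRKY69 (AT3G58710) was at -1.32, -0.68, -0.84, -1.22 and -0.38 on the gamma arrays of runs 1 to 5, against -1.18, -0.27, -0.55, -0.86 and -0.15 on the mock arrays. WRKY13 (AT4G39410) was at -3.67, -4.11, -4.26, -4.48 and -4.76 on the gamma arrays of runs 1 to 5, against -3.83, -4.57, -4.64, -4.92 and -4.91 on the mock arrays. WRKY69 was lower after gamma in 5 of 5 runs (-0.29 ± 0.06 SE, adjusted p = 0.0559) and WRKY13, a regulator of stem secondary wall and flowering, higher in 5 of 5 (0.32 ± 0.072 SE, adjusted p = 0.0667), both short of the threshold. Of these 28 genes, 16 differed between runs and the median mock span was 0.83. Both WRKY lists were chosen with earlier results of these data known, so differences between them may follow from that choice.

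Of 14 MAP kinase cascade members and VQ proteins that modify or bind WRKY factors, 0 were called (3 higher and 1 lower at an unadjusted p under 0.05), with a median of 0.15. Estimates were above 0 for 13 of the 14 and below 0 for 1, MPK6. MPK6, a kinase of WRKY33, differed by -0.19 ± 0.056 and SIB2, a VQ protein that binds WRKY33, by 0.33 ± 0.10. Of 12 genes known as targets of WRKY factors, 10 were tested and 0 were called (0 higher and 1 lower at an unadjusted p under 0.05), with a median of -0.028. PHO1, the phosphate exporter gene repressed by WRKY6, differed by -0.28 ± 0.10, and the redox responsive factor RRTF1 by 0.96 ± 0.48. PAD3, the last enzyme of camalexin synthesis and a target of WRKY33, was chosen after its values were seen and differed by 0.047 ± 0.40.

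The salicylate defence list held 12 genes, of which 1 rose, 0 fell and 11 did not pass (1 higher and 0 lower at an unadjusted p under 0.05). SAG101, a lipase-like partner of EDS1 in immune signalling, was the gene that rose. SAG101 (AT5G14930) was at 0.55, 1.09, -0.33, 0.11 and 1.27 on the gamma arrays of runs 1 to 5, against -0.057, 0.0098, -1.21, -0.68 and 0.24 on the mock arrays. The difference was 0.88 ± 0.082 (SE, limma adjusted p = 0.00622), the gamma array being the higher in 5 of 5 runs. EDS5, the salicylate pathway transporter, differed by -0.13 ± 0.057. PBS3, which makes the salicylate precursor, and ICS1, the first enzyme of that pathway and one of the WRKY targets above, were chosen after their values were seen. PBS3 (AT5G13320) was at -1.04, -1.44, -2.14, -1.81 and -1.84 on the gamma arrays of runs 1 to 5, against 0.39, 0.47, -2.20, -1.71 and -1.74 on the mock arrays. The mock arrays of runs 1 and 2 lay above the other 8 arrays, and its estimate was -0.69 ± 0.33 (adjusted p = 0.277). ICS1 had the same order, with -1.34 and -1.30 on the gamma arrays of runs 1 and 2, against -0.51 and -0.09 on the mock arrays. That order held for 3 of 12 salicylate genes, 2 of 10 targets and 3 of 35 WRKY genes (WRKY51, WRKY41 and WRKY55), beside 5.24% of all genes. The order itself was chosen after the values were seen, and these small counts were not tested.

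Of 9 senescence genes tested, 0 were called (0 higher and 2 lower at an unadjusted p under 0.05), and NAP, a senescence regulator, differed by -0.19 ± 0.057 and SAG21 by -0.33 ± 0.12. In the touch and wound list, CBF3, a cold response factor, rose (0.59 ± 0.10 SE, adjusted p = 0.0349), 15 of 16 genes did not pass and ZAT6, a zinc finger factor, differed by 0.30 ± 0.085. Of 9 circadian clock genes 0 were called by limma (0 at an unadjusted p under 0.05 in either direction); ELF4, of the evening complex, differed by 0.21 ± 0.15 and PRR7, a pseudo-response regulator, by -0.11 ± 0.093. Of 9 root markers 0 were called (1 higher and 3 lower at an unadjusted p under 0.05). The 2 smallest p were those of PYK10, a root beta-glucosidase, at 0.28 ± 0.072 (higher in 5 of 5 runs, adjusted p = 0.0912), and CASP1, of the Casparian strip, at -0.45 ± 0.12 (lower in 5 of 5 runs, adjusted p = 0.0964). The summed linear root marker level relative to the 75th percentile, most of it the PYK10 probe, ranged from 58.5 to 87.4 on gamma arrays and from 51.4 to 81.0 on mock arrays. Without PYK10 it ranged from 3.57 to 5.10 on gamma arrays and from 4.24 to 6.73 on mock arrays. Of 9 leaf markers GL1, a trichome regulator, fell (-0.44 ± 0.078 SE, adjusted p = 0.039), GAPA, a chloroplast Calvin cycle enzyme, differed by 0.084 ± 0.056, and the summed level ranged from 702 to 1085 on gamma arrays and from 655 to 1082 on mock arrays. The part of cell composition in the WRKY differences was not tested.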

How the data were processed

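Total RNA of 10 seedling samples was measured on 10 Agilent 1-colour arrays, 5 gamma and 5 mock. Per the file headers, the scanner files hold linear spot intensity from Feature Extraction 11.0.1.1, already background-subtracted, while the submitters' processing notes name version 9.1. The deposited value table holds linear ratios: the log2 of its columns followed each array's probe-centred log2 signal with r of at least 0.997, and the median over arrays was 1 (within 1e-04) for 77.7% of probes. Column medians were 0.967, 0.960, 0.967, 0.9925 and 0.925 for gamma runs 1 to 5 and 0.969, 0.963, 0.959, 0.974 and 0.9255 for mock runs 1 to 5. How arrays were scaled there is not known, so the table served only as an alternative. Its gamma-minus-mock estimates nearly equalled those of array median scaling. They were 0.08219 against 0.08166 for WRKY3 and 0.6004 against 0.5998 for WRKY25. The 2 alternatives are therefore not independent of each other.

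Control spots and outlier spots (2 to 26 per array) were left out, spots of a probe averaged, and log2 processed signal minus the array's 75th percentile (a signal of 1651 to 2654) computed. Probes were named by transcript accession through the RefSeq gene table of TAIR10.1. Of 43603 probes, 34348 matched a locus and 9255 did not. A target without a locus was kept under its own name and counted as a gene. Thus 20036 of the 23665 genes tested had a locus. The array design names TAIR10, so no coordinates are given. All 37 listed symbols matched RefSeq. The brightest probe of a locus was used, if well above background on at least 5 arrays. Of the 35 WRKY genes, 29 were above background on all 10 arrays and 17 had several probes.

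Gamma was compared with mock in limma 3.58.1 under R 4.3.3 (lmFit and eBayes, two-sided, run as a fixed block, Benjamini-Hochberg over 23665 genes, 4 residual and 2.27 prior degrees of freedom). Adjusted p-values come from these fits and not from the depositors. The pairing comes from the runs named in the titles. Within runs, deviations from the group means correlated at 0.737, 0.562, 0.775, 0.739 and 0.894 across genes, and each array's best match was its partner. Run terms were tested with an F test and the later-minus-earlier difference with an interaction term. On simulated data for 23659 genes, the gamma test recovered 52%, 88%, 100% and 100% of log2 changes of 0.5, 1, 2 and 4, and the interaction test 0%, 18%, 86% and 96%. The changed genes were picked at random from all genes. Simulated noise was normal and independent between genes and arrays, with each gene's moderated standard deviation from the real fit. Recovery in real data may therefore differ. The median SE was 0.081 over all genes and 0.127 over the WRKY genes, so recovery for the WRKY set may be lower. The normexp alternative (offset 50) used the median spot signal, since the files hold no mean spot signal.

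The WRKY set and the gene lists were chosen with earlier results of these data known. All WRKY genes could be named. Values on all arrays are given for those past the threshold in the gamma or run test, the 8 largest differences, the 8 smallest p and the 4 widest mock spans. Of other lists, the 2 smallest p and any called gene are named, except that of the radiation check list only the 2 smallest p are named.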

Additional observations from a re-analysis of the deposited data

Results flagged for a closer look

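Among 105 sets of 5 values (the gamma level, the mock level and the gamma-minus-mock difference of each WRKY gene), 8 had 1 run far from the other 4, by a gap above 0.71 of the whole range; chance gives about 1 in 20. Both arrays of run 5 stood apart for WRKY29, at -0.505 on the gamma array and -0.505 on the mock array, where the other runs lay between -2.21 and -1.83 on gamma arrays and between -2.20 and -1.71 on mock arrays. The gamma array of run 5 also stood apart for WRKY75, high at -0.604, and for WRKY47, low at -2.03. The gamma-minus-mock difference stood apart in run 2 for WRKY30, at -4.71, where the mock array was high, and for WRKY6, at -0.264. It stood apart in run 3 for WRKY18, at -1.03, and in run 1 for WRKY65, at 0.297.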

How the results depend on the processing

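WRKY50, WRKY60 and WRKY48 were called under array median scaling, quantile normalisation, normexp correction, the mean of all probes and the deposited value table. Estimates from the deposited value table and from array median scaling were nearly the same, so these alternatives are not independent. With only probes well above background on all 10 arrays, WRKY60 and WRKY48 were called and WRKY50 was not tested. Without a filter, 0 WRKY genes and 332 of 34290 genes, with or without a locus, were called (174 higher, 158 lower). Without the replicate block, 0 WRKY genes and 141 genes (107 higher, 34 lower) were called. The main count of 973 split into 403 higher and 570 lower, array median scaling gave 516 and 495, and the deposited ratios 518 and 494. Leaving out 1 run left 0 to 5 WRKY genes called and 175 to 1015 genes (109 to 403 higher, 66 to 612 lower). The 5 WRKY genes without run 2 were WRKY17, WRKY26, WRKY48, WRKY53 and WRKY60, and 0 were called without run 3, 4 or 5. The earlier runs alone gave 0 calls for WRKY genes and for all genes (0 higher, 0 lower), with 2 pairs; the later runs alone gave 4 WRKY genes and 743 genes. WRKY genes differing between runs numbered 16 to 30 with 1 run left out and 23 to 26 under the other alternatives. The later-minus-earlier count was 1, WRKY38, under array median scaling, normexp, the value table and the strict filter.

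Differences that changed sign included small ones and some of the largest, among them WRKY30, WRKY51, WRKY55 and WRKY62, and the cause was not tested. Array median scaling turned WRKY7 (0.0036) and WRKY65 (0.0155), the value table WRKY7 (0.00413) and WRKY65 (0.0161), quantile normalisation WRKY18 (-0.0196), normexp WRKY72 (-0.01) and WRKY65 (0.012) and the mean of probes WRKY72 (-0.113). Other probes gave -0.0773 for WRKY47 and -0.257 for WRKY72. The earlier runs alone turned WRKY26 (-0.0108), WRKY6 (-0.0297), WRKY45 (-0.0668), WRKY75 (-0.00212), WRKY11 (-0.0976), WRKY65 (0.0927) and WRKY46 (-0.0247). The later runs alone turned WRKY18 (-0.125), WRKY31 (-0.0705), WRKY72 (-0.0861), WRKY8 (0.0963), WRKY51 (0.228), WRKY7 (0.0423), WRKY15 (0.0858), WRKY22 (0.0658), WRKY30 (0.099), WRKY38 (-0.107), WRKY41 (0.202), WRKY54 (-0.0921), WRKY55 (0.0126) and WRKY62 (-0.465). Leaving out 1 run changed the sign of these genes within the ranges given: WRKY7 -0.0618 to 0.0454, WRKY8 -0.102 to 0.0856, WRKY11 -0.00177 to 0.128, WRKY15 -0.123 to 0.0636, WRKY18 -0.0897 to 0.277, WRKY22 -0.202 to 0.0158, WRKY54 -0.0491 to 0.0502, WRKY65 -0.0845 to 0.0248, WRKY72 -0.0146 to 0.112.

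Each group held 5 arrays on 5 slides, and dim probes are measured least well: of the 6 WRKY genes not above background on all arrays, WRKY50 alone was called. Normexp, which adds an offset to each signal, gave WRKY50 a log2 difference of 2.49. Each probe on its own, and the count without these 6 genes (2 called), were added after the data were seen.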
